A study of Mus musculus with 8 samples.

Results

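The genes that encode the pore of voltage-gated calcium channels were followed from the whole ventral pallidum (VP), a basal forebrain nucleus of the reward system, to the ribosomes of its vGluT2-Cre neurons. The 8 members, Cacna1a, Cacna1b, Cacna1c, Cacna1d, Cacna1e, Cacna1g, Cacna1h and Cacna1i, were taken by name from the 14353 genes of the deposited table, and all 8 passed the filter on low values that left 14249 genes to test (over 1 CPM in at least 3 libraries, where CPM is a gene's read count scaled to the size of its library). Cacna1f and Cacna1s, the pore genes best known from retina and skeletal muscle, had no values under those names and so were not analysed. The measured values show Cacna1e, Cacna1g, Cacna1i and Cacna1c at higher levels in the neurons' ribosome-bound RNA than in the VP as a whole by each of the 2 main comparisons, with and without the pool as a block, Cacna1b and Cacna1d by 1 of the 2, and Cacna1a and Cacna1h by neither. With the trend of the differences on exon length taken out, only Cacna1g and Cacna1i were still called without the block, and no member was called with it.

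RNA came from untreated mice labelled VGluT2-Cre x Rpl22, which carried VGluT2-Cre on both alleles and the Rpl22 allele on 1, in both fractions alike. In these RiboTag mice the cells that make Cre put a hemagglutinin (HA) tag on a ribosomal protein, so an antibody to HA pulls down their ribosomes with the mRNA being translated (TRAP), while INPUT is RNA of the lysate before the pull-down and so holds neurons and glia. Cre is driven from Slc17a6, the gene of the vesicular glutamate transporter vGluT2, and a recombined allele stays tagged, so cells that made vGluT2 only earlier in life carry the tag as well. The tissue was pooled (named VP1.6, VP2.2, VP2.6, VP2.11), and each of these 4 pools gave 1 TRAP and 1 INPUT library (n = 4 per fraction). The labels give 7 mice in VP1.6, aged 9 to 12 weeks, and 10 or 11 in each of the other pools, aged 10 to 16 weeks, with 15 males and 23 females mixed within pools. The labels call the second library of a pool Input, but the sequencing methods speak of an unbound fraction.

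A calcium channel is built around 1 large pore-forming subunit that senses voltage and decides how the current behaves, with auxiliary subunits that bring it to the membrane and tune its gating. Cacna1c and Cacna1d make L-type channels, which couple calcium entry to gene transcription and, for Cacna1d, can open at voltages below spike threshold. Cacna1a makes P/Q-type and Cacna1b N-type channels, the main sources of calcium for transmitter release, and Cacna1e makes R-type channels, which act in dendrites as well as at terminals. Cacna1g, Cacna1h and Cacna1i make T-type channels, which open near resting potential and carry rebound bursts.

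RefSeq holds 8 promoter windows for 5 of the members (GRCm38.p6, 300 bases each, around a RefSeq start), and for Cacna1a, Cacna1g and Cacna1h none were read. Of the 4 genes called higher in both fits, Cacna1c, Cacna1e and Cacna1i have a window. For each of them 1 window is shown, because the genes move together between the fractions while the windows shown differ in base composition. For Cacna1c the window shown is the richest in GC of those held for the gene, so the contrast rests on that choice. It lies at chr6:119108446-119108745 on the minus strand. The window of Cacna1e lies at chr1:154725871-154726170 on the minus strand, and that of Cacna1i at chr15:80286988-80287287 on the plus strand. Set against the gene spans given below, 3 of the 8 windows lie mostly ahead of the gene start, that of Cacna1i among them, and 5 lie wholly inside the gene at internal starts, including those of Cacna1c and Cacna1e shown here. The sequences are written 5′ to 3′, and capitals mark GGGCGG, the core of the GC box, which was searched on both strands with overlapping matches counted.
Cacna1c: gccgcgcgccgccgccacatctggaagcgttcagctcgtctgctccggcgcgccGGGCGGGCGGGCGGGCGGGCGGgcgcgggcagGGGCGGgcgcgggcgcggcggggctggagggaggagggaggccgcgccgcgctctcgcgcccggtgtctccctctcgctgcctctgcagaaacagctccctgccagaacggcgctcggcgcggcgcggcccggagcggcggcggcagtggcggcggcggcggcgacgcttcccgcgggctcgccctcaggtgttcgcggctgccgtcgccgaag
Cacna1e: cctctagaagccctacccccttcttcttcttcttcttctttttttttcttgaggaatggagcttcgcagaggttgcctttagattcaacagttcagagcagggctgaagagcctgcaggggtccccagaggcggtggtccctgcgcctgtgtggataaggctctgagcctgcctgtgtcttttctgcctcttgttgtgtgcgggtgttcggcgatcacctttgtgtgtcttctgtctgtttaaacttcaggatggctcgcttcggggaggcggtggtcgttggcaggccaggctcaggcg
Cacna1i: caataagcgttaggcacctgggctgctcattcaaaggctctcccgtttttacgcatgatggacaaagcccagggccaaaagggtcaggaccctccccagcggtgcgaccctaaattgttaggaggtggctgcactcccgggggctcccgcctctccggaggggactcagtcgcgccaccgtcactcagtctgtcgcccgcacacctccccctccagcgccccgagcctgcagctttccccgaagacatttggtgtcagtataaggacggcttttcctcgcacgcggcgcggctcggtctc
The Cacna1c window has a GC content of 81.3% with 6 matches, 5 of them in 1 overlapping run, whereas the Cacna1e window (GC content 55.3%) and the Cacna1i window (62.7%) hold none. Over all 32851 RefSeq windows the median GC content was 52.7%, and 35.7% held GGGCGG on either strand. Cacna1c has 2 further windows, at chr6:119196360-119196659 and chr6:118757925-118758224, both at a GC content of 51.3% with no match. The first of these lies mostly ahead of the gene start. Cacna1b (chr2:24763103-24763402, minus strand) had 3 matches at a GC content of 72.3%. Cacna1d had 6 at 87.3% in the window chr14:30353437-30353736 and 0 in the window chr14:30491107-30491406, which with a GC content of 40.3% was the only one of the 8 to hold TATAAA on either strand, a motif found in 13.6% of all windows. The deposited values are per gene, so they do not say which start was used.

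The pull-down and the shape of the values bear on every result below. All 5 genes listed here as markers of the vGluT2 lineage were higher in TRAP in both fits, as were 15.4% of all genes tested. Their log2 differences were 3.16 for Tbr1, 2.84 for Neurod1, 2.55 for Slc17a6, 2.49 for Neurod6 and 1.42 for Nrn1. Their summed level was 415 to 566 CPM in TRAP against 95.2 to 161 CPM in INPUT, and which neurons made these transcripts was not tested. Markers of other cells were still read in TRAP: the summed level of 5 oligodendrocyte markers was 900 to 1631 CPM there against 3506 to 3807 CPM in INPUT, that of 5 astrocyte markers 150 to 253 CPM against 343 to 502 CPM, that of 5 microglial markers 23.7 to 31.8 CPM against 78.8 to 126 CPM and that of 5 medium spiny neuron markers 181 to 278 CPM against 461 to 650 CPM. The summed level of 5 GABA neuron markers ran over nearly the same range in TRAP (1018 to 1693 CPM) as in INPUT (1073 to 1781 CPM), that of 5 cholinergic markers was 95.3 to 145 CPM against 59.3 to 112 CPM, that of 4 endothelial markers 11.1 to 74.5 CPM against 5.06 to 46.8 CPM, that of 5 oligodendrocyte precursor markers 38.0 to 67.3 CPM against 35.0 to 57.5 CPM, and that of 5 smooth muscle and pericyte markers 12.7 to 26.2 CPM against 28.1 to 35.1 CPM. Within the GABA sum, Gad1 and Gad2 had means of 613 and 528 CPM in TRAP, while Sst, Pvalb and Slc32a1 were lower there in both fits. Low values of VP2.2 and VP2.6 fell on steps of whole reads, which put TRAP at about 11.7 M and 12.1 M reads and INPUT at about 35.3 M and 24.1 M, and the depth of the other pools is unknown. In 14351 of the 14353 genes, 1 value can be drawn that lies between the TRAP and the INPUT level of every pool, so the libraries of a pool do not vary on their own, a gene's fractions fail to overlap whenever all 4 pools point the same way (3320 of the genes tested under either description, 23.3%), and the SDs given below for a fraction do not measure how pools differ in level. TRAP was therefore compared with INPUT by 2 limma fits, with the fraction alone and with the pool as a replicate block, and both adjusted p-values are given.

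Of the 8 members, 6 were called higher in TRAP with the fraction alone (Cacna1c, Cacna1d, Cacna1b, Cacna1e, Cacna1g and Cacna1i), where 23.2% of all genes tested were called higher and 47.9% in either direction. With the pool as a block 4 were called (Cacna1c, Cacna1e, Cacna1g and Cacna1i), against 15.4% of all genes higher and 32.2% in either direction, and no member was called lower in either fit. The members' median log2 difference was 0.93, beside -0.05 over all genes tested, and 7 of the 8 members (87.5%) lay above 0 against 47.6% of all genes. INPUT also holds glia, and 5 pan-neuronal markers (Snap25, Syt1, Tubb3, Stmn2 and Rbfox3) had a median of 0.95. Whether the members rose beyond neuronal RNA as a whole was not tested. In bulk RNA a larger share of tagged cells and more RNA per tagged cell cannot be told apart.

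**Figure D1:**
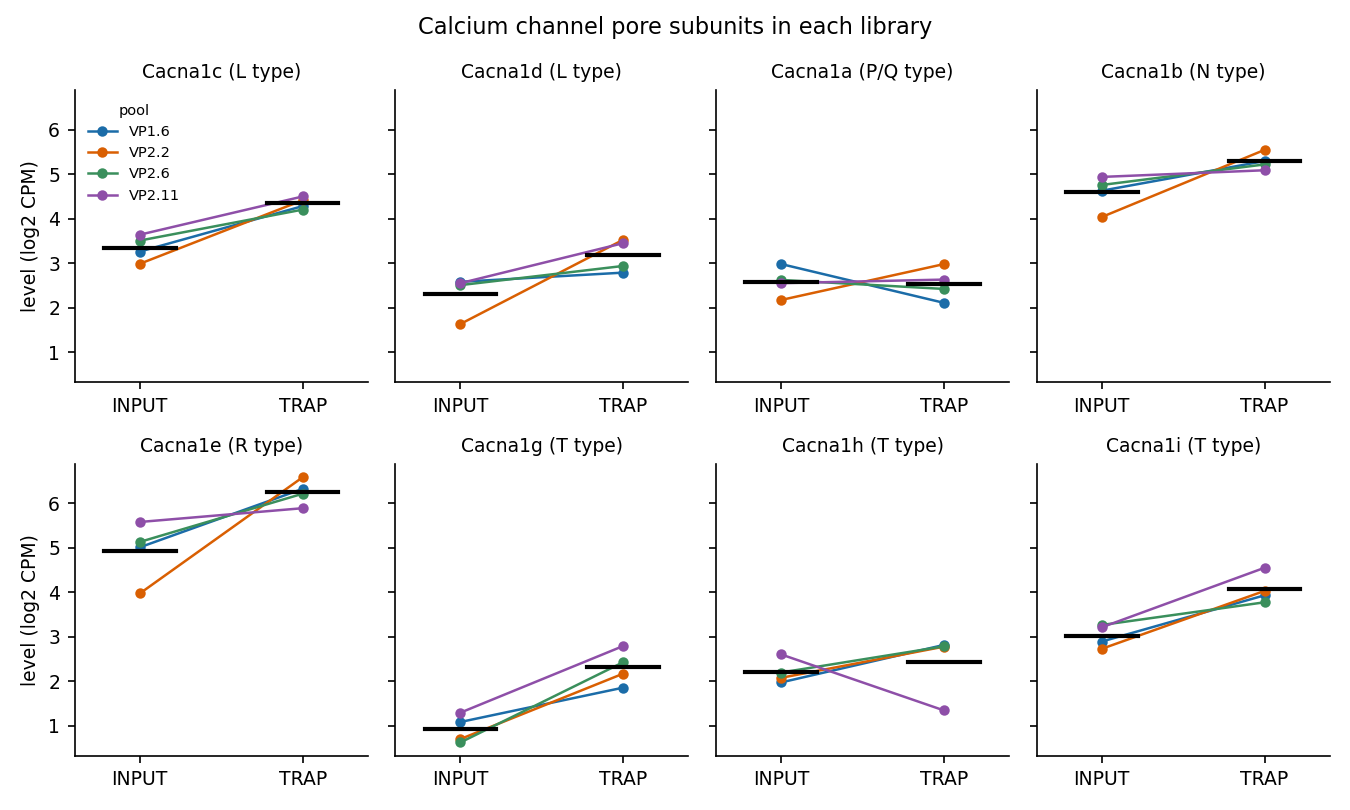
Level of each pore subunit gene (log2 CPM) in the INPUT and TRAP library of each pool, with lines joining the libraries of a pool and black bars for the mean of a fraction (n = 4). All 4 lines rise from INPUT to TRAP for 6 genes, while those of Cacna1a and Cacna1h cross.

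Among the L-type genes, Cacna1c (ENSMUSG00000051331, chr6:118587240-119196418 of GRCm38, minus strand) read 19.5, 21.3, 18.4 and 22.6 CPM in the TRAP libraries, in the order VP1.6, VP2.2, VP2.6, VP2.11, and 9.58, 7.92, 11.4 and 12.5 CPM in the INPUT libraries. The fractions did not overlap, and INPUT VP2.2 was the lowest library. The mean was 20.5 ± 1.87 CPM in TRAP and 10.3 ± 2.00 CPM in INPUT (SD, n = 4), a log2 difference of 1.00 (standard error, SE, 0.18 with the fraction alone and 0.27 with the block). limma's adjusted p was 0.0013 with the fraction alone and 0.010 with the block, and both fits called the gene with any pool left out. With the exon length trend taken out, the difference was 0.37 and the call was lost (adjusted p 0.13 alone, 0.36 with the block).

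Cacna1d (ENSMUSG00000015968, chr14:30039939-30491455, minus strand) read 2.79, 3.53, 2.94 and 3.45 on the log2 CPM scale in TRAP and 2.58, 1.63, 2.51 and 2.55 in INPUT, in the same order of pools, or 9.25 ± 2.31 and 5.15 ± 1.38 CPM on average (SD, n = 4). INPUT VP2.2 stood well below the other INPUT libraries, and the pool differences ran from 0.21 in VP1.6 to 1.90 in VP2.2. The log2 difference of 0.86 (SE 0.27 alone, 0.36 with the block) was called with the fraction alone (limma, adjusted p 0.025) and not with the block (0.078; 95% interval 0.10 to 1.62, not adjusted for the number of genes). Without VP2.2 it was 0.51 and lost its call (adjusted p 0.11 alone), as it did without VP2.6 (1.00, adjusted p 0.055), without VP2.11 (0.84, adjusted p 0.060) or without only the TRAP or only the INPUT library of VP2.2 (0.74 and 0.63, adjusted p 0.064 and 0.061), and with the exon length trend taken out (0.41, adjusted p 0.26 alone). Of its exon sequence, 4.67% overlaps exons of Chdh on the other strand, and whether the counting used strand is not given in the sources used here.

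Among the genes of the channels of transmitter release, Cacna1a (ENSMUSG00000034656, chr8:84388440-84640246, plus strand) was read at 4.31, 7.88, 5.35 and 6.19 CPM in TRAP and 7.89, 4.50, 6.15 and 5.86 CPM in INPUT. The fractions overlapped, with TRAP above INPUT in VP2.2 and VP2.11 and below it in VP1.6 and VP2.6. The log2 difference was -0.05 (SE 0.25 alone and 0.36 with the block; limma, adjusted p 0.89 and 0.93), and the block's 95% interval, -0.82 to 0.73, holds changes of either sign. An antisense gene, Gm16183, overlaps 3.81% of its exon sequence.

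Cacna1b (ENSMUSG00000004113, chr2:24603887-24763152, minus strand) stood at 39.3, 46.8, 37.3 and 34.1 CPM in TRAP and 24.8, 16.4, 27.1 and 30.7 CPM in INPUT. The fractions did not overlap, though TRAP VP2.11 came close to INPUT VP2.11. The log2 difference of 0.70 (SE 0.20 alone, 0.26 with the block) was called with the fraction alone (limma, adjusted p 0.015) and just missed with the block (0.052; unadjusted 95% interval 0.14 to 1.25). Without VP2.2 it fell to 0.43, and without VP1.6 (0.71) the call with the fraction alone was lost at an adjusted p of 0.071. With the exon length trend taken out, it was 0.35 and not called (adjusted p 0.18 alone).

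Cacna1e, the R-type gene (ENSMUSG00000004110, chr1:154390731-154884501, minus strand), had the highest CPM of the 8. Its TRAP libraries read 80.2, 96.1, 74.3 and 59.3 CPM and its INPUT libraries 32.2, 15.7, 35.0 and 47.8 CPM. TRAP VP2.2 was the highest library and INPUT VP2.2 the lowest, so that this pool alone gave a log2 difference of 2.61, while VP2.11 gave 0.31. The extremes of VP2.2 are tied, since the libraries of a pool do not vary on their own. The mean difference was 1.33 (SE 0.30 in both fits, SD over the pools 0.96), with adjusted p-values of 0.0045 and 0.0043 (limma). The fits draw the variance of a gene toward that of other genes, so the SE does not measure the spread of these pools alone. Without VP2.2 the difference was 0.90 and still called in both fits. With the exon length trend taken out, it was 0.64 and called in neither (adjusted p 0.11 alone, 0.14 with the block).

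**Figure D2:**
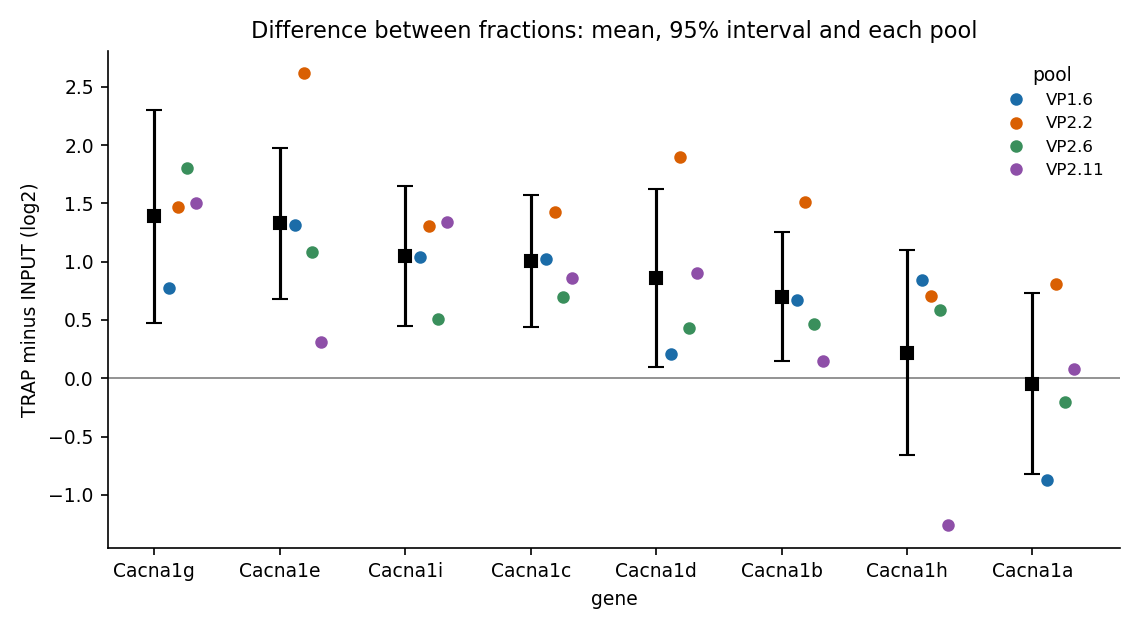
TRAP minus INPUT log2 difference of the 8 genes in order of size, with squares for the mean, bars for the 95% interval of the blocked fit (not adjusted for the number of genes) and circles for the 4 pools. VP2.2 gave the highest of the 4 values for Cacna1c, Cacna1d, Cacna1a, Cacna1b and Cacna1e, and the interval of Cacna1h and that of Cacna1a include 0.

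Among the T-type genes, Cacna1g (ENSMUSG00000020866, chr11:94408391-94474198, minus strand) was the lowest in counts, at 5.10 ± 1.41 CPM in TRAP and 1.93 ± 0.428 CPM in INPUT (SD, n = 4). On the log2 CPM scale its libraries read 1.85, 2.17, 2.43 and 2.79 in TRAP and 1.08, 0.70, 0.62 and 1.29 in INPUT. Every TRAP library was above every INPUT library, and the pool differences ran from 0.77 in VP1.6 to 1.81 in VP2.6. The mean difference of 1.39 was the largest of the 8 (SE 0.29 alone, 0.43 with the block; limma, adjusted p 0.0029 and 0.022). That rank was not stable. With 1 CPM added before the log, Cacna1g was at 1.04 and Cacna1e at 1.30. Cacna1e was also ahead without VP2.6 (1.41 against 1.25) and without VP2.11 (1.67 against 1.35), but not without VP1.6 or without VP2.2. With the block, the call of Cacna1g was lost without VP2.2 (1.36, adjusted p 0.056) and without VP2.6 (1.25, adjusted p 0.11).

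Cacna1i (ENSMUSG00000022416, chr15:80287238-80398279, plus strand) read 15.2, 16.3, 13.7 and 23.4 CPM in TRAP and 7.41, 6.62, 9.60 and 9.25 CPM in INPUT. The fractions were well apart, and TRAP VP2.11 was the highest library. The difference of 1.05 (SE 0.21 alone, 0.28 with the block; limma, adjusted p 0.0025 and 0.011) was called in both fits with any pool left out.

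Cacna1h (ENSMUSG00000024112, chr17:25374285-25433783, minus strand) read 7.03, 6.84 and 6.88 CPM in the TRAP libraries of VP1.6, VP2.2 and VP2.6 but 2.53 CPM in that of VP2.11, against 3.92, 4.21, 4.57 and 6.06 CPM in INPUT. TRAP VP2.11 was thus the lowest of the 8 libraries while its INPUT partner was the highest INPUT library, and the fractions overlapped. As the libraries of a pool do not vary on their own, these extremes are not separate observations. The log2 difference over all pools was 0.22 (SE 0.34 alone, 0.41 with the block; limma, adjusted p 0.62 and 0.72; block interval -0.66 to 1.10). Without VP2.11 it was 0.71, at an adjusted p of 0.0091 with the fraction alone and 0.15 with the block, and TRAP VP2.11 was also the TRAP library least like the others over all genes (Pearson's r 0.94 across genes, which are not replicates). Its part in the result was not otherwise tested. Exons of Tpsg1 on the other strand overlap 1.62% of its exon sequence.

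All members are long genes, and length moved with the difference. Over all genes tested, the log2 difference rose with merged exon length (Spearman's rho 0.41, a description over genes), from a median of -0.98 in the shortest of 10 equal bins of length to 0.49 in the longest. The merged exons of the members ran from 9.76 kb (Cacna1h) to 25.2 kb (Cacna1e), at the 89.6th to the 99.8th percentile, where the trend alone stood at 0.34 to 0.69. With the trend taken out, Cacna1g (1.04) and Cacna1i (0.71) were called with the fraction alone (limma, adjusted p 0.018 and 0.022) where 24.4% of all genes were called higher and 42.1% in either direction, and with the block no member was (0.11 and 0.086 for those genes, against 15.4% of all genes called higher and 26.5% in either direction). Cacna1c, Cacna1d, Cacna1b and Cacna1e were then called in neither fit, at the values given above. The source of the trend was not tested.

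**Figure D3:**
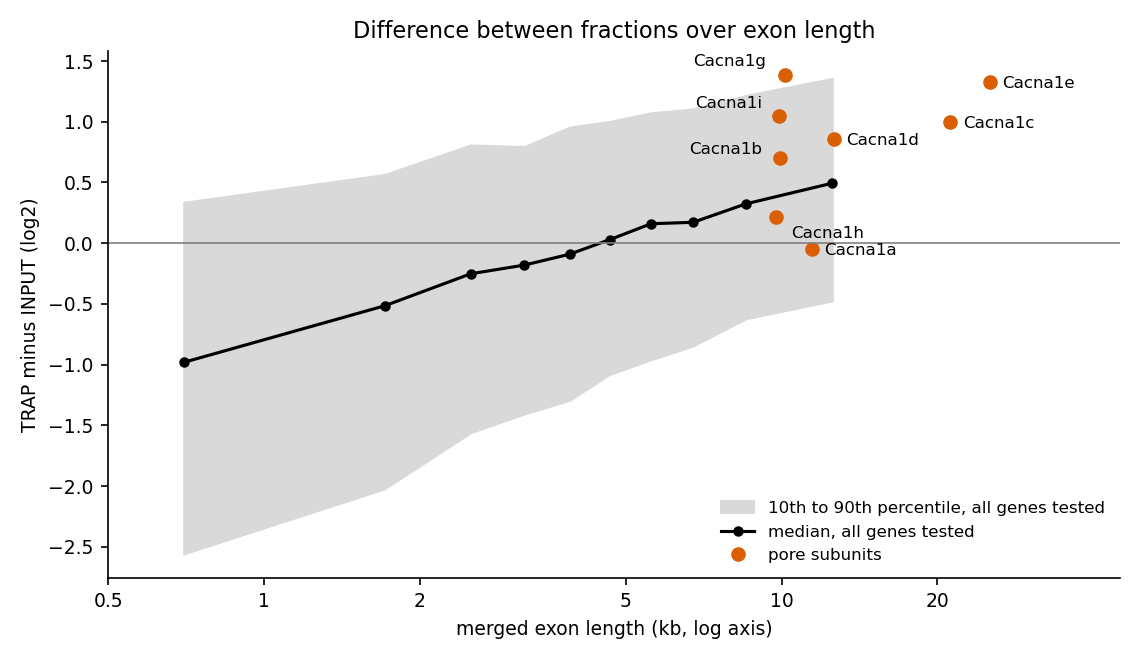
TRAP minus INPUT log2 difference against merged exon length (kb, log axis), with the line for the median and the grey band for the 10th to 90th percentile of all genes tested in 10 equal bins of length, placed at the median length of each bin, and the 8 pore genes as dots. The median climbs from -0.98 to 0.49, and Cacna1g lies above the band at its length while Cacna1a and Cacna1h lie under the median.

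Differences within a channel family were set side by side for 7 pairs of genes, chosen with their values known. The exon length trend was not taken out of these differences. That trend stood at 0.69 for Cacna1e, 0.40 for Cacna1a, 0.34 for Cacna1b, 0.64 for Cacna1c, 0.44 for Cacna1d and 0.34 to 0.35 for the T-type genes. Pools can be compared within a pair by exact two-sided sign flips, for which 4 pools allow no p under 0.125. In all 4 pools Cacna1e moved further toward TRAP than Cacna1a (by 1.38 on the log2 scale, range over pools 0.23 to 2.19), Cacna1b further than Cacna1a (0.74, range 0.07 to 1.54) and Cacna1e further than Cacna1b (0.63, range 0.16 to 1.10), each at the smallest p of 0.125 and at 0.29 after adjustment over the 7 pairs. The T-type genes did not hold an order in every pool, since the difference of Cacna1g exceeded that of Cacna1h by 1.17 on average but from -0.07 to 2.76 (exact p 0.25), and that of Cacna1i exceeded Cacna1h by 0.83, in 3 of 4 pools (exact p 0.25). Cacna1g and Cacna1i differed by 0.34 (range -0.27 to 1.29, exact p 0.50) and the L-type genes Cacna1c and Cacna1d by 0.14 (range -0.47 to 0.82, exact p 0.75).

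Levels can be compared between genes only per length, and per kb of merged exons Cacna1b led in TRAP at 3.96 ± 0.544 CPM per kb (SD, n = 4), followed by Cacna1e at 3.07 ± 0.603 and Cacna1i at 1.74 ± 0.437. Cacna1c followed at 0.966 ± 0.0884, Cacna1d at 0.733 ± 0.183, Cacna1h at 0.596 ± 0.225, Cacna1a at 0.520 ± 0.132 and Cacna1g at 0.503 ± 0.139 CPM per kb. Of the 7 neighbouring pairs in this order, the TRAP ranges were apart only between Cacna1i and Cacna1c, although Cacna1b exceeded Cacna1e in all 4 TRAP libraries. In INPUT the order was Cacna1b (2.49 ± 0.609 CPM per kb), Cacna1e (1.296 ± 0.524), Cacna1i (0.833 ± 0.146) and then Cacna1a (0.534 ± 0.122), which stood 7th in TRAP, and only the last step, from Cacna1d (0.408 ± 0.109) to Cacna1g (0.190 ± 0.0422), had ranges apart. The length chosen decides the top of the TRAP order: per kb of the longest coding sequence Cacna1e came first at 11.4 and Cacna1b second at 5.64 CPM per kb, since the merged exons of Cacna1e (25228 bases) are far longer than its coding sequence (6819 bases). Cacna1g was last under merged exons, coding sequence and longest transcript alike.

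Summed over the 8 genes, the level was 11.6, 13.9, 11.3 and 11.6 CPM per kb of merged exons in TRAP and 6.75, 4.55, 7.23 and 8.35 in INPUT, in the same order of pools, 1.39 to 3.06 times higher in TRAP. Within that sum the N type made up 34.1%, 33.8%, 33.3% and 29.6% in TRAP against 36.9%, 36.3%, 37.7% and 37.0% in INPUT, lower in TRAP in every pool (mean 32.7% ± 2.09 against 37.0% ± 0.552, SD, n = 4). The P/Q type, which is Cacna1a alone, made up 3.25%, 4.96%, 4.16% and 4.69% in TRAP and 10.2%, 8.67%, 7.45% and 6.14% in INPUT, again lower in every pool with no overlap between fractions (4.26% ± 0.751 against 8.13% ± 1.75). Both orders held in every pool per kb of coding sequence, per kb of the longest transcript and with no division by length. A fixed length leaves the ratio of TRAP to INPUT of each gene as it was, and the exon length trend was not taken out of any share. That trend stood at 0.69 for Cacna1e and 0.64 for Cacna1c but 0.40 for Cacna1a and 0.34 for Cacna1b, and its part in the shares was not tested. The lower N share stands beside a Cacna1b level of 39.4 CPM in TRAP and 24.7 CPM in INPUT, since a share is set by the other members too.

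The R type made up 27.4%, 27.3%, 26.2% and 20.3% in TRAP and 18.9%, 13.7%, 19.2% and 22.7% in INPUT, higher in TRAP in 3 pools and lower in VP2.11 (25.3% ± 3.37 against 18.6% ± 3.73). The T type was at 23.7% ± 3.61 in TRAP and 22.9% ± 3.33 in INPUT and the L type at 14.1% ± 1.83 and 13.4% ± 0.531, with fractions that overlapped. Per kb of coding sequence the R type came first in TRAP at 42.7% and the N type second at 21.3%, so which of them leads depends on the length used. Within the T type, Cacna1i held 60.6% ± 7.86 of the TRAP level, Cacna1h 21.8% ± 9.38 and Cacna1g 17.6% ± 3.41, and in INPUT 55.4% ± 4.00, 31.9% ± 2.83 and 12.7% ± 2.41. The share of Cacna1h in TRAP was 7.82% in VP2.11 and 25.0% to 27.5% in the other pools. Within the L type, Cacna1c held 57.3% ± 4.47 in TRAP and 54.9% ± 4.76 in INPUT.

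**Figure D4:**
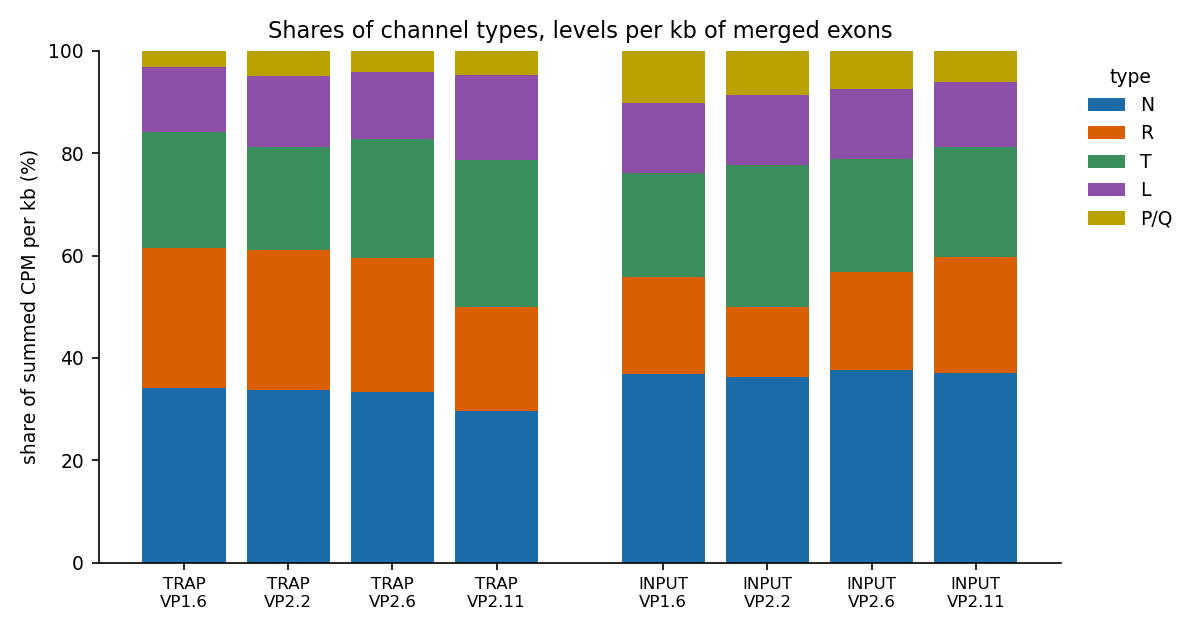
Share (%) of each channel type in the summed level of the 8 genes (CPM per kb of merged exons), for the 4 TRAP and the 4 INPUT libraries, with bars that add to the whole. The P/Q share runs from 3.25% to 4.96% in TRAP and from 6.14% to 10.2% in INPUT, and the TRAP library of VP2.11 has the smallest R and N shares of its fraction.

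The members' patterns over the 8 libraries were compared by Pearson's r on log2 CPM, as a description only, since the libraries fall into 2 fractions and the partners of a pool are tied. Cacna1b and Cacna1e ran most closely together (r 0.995), then Cacna1c and Cacna1i (0.97), whereas Cacna1a reached at most 0.50, with Cacna1d, and Cacna1h at most 0.47, with Cacna1e. Of all other genes tested, the one most like Cacna1i was Stat2 (r 0.997), and for Cacna1e it was Nfat5 (0.999) and for Cacna1b Ralgapa1 (0.998). For Cacna1d it was Scyl2 (0.999), for Cacna1g Nek4 (0.997), for Cacna1h Ext1 (0.998) and for Cacna1a Wdr59 (0.992). Such likeness was common for the genes that differed between fractions: 1921 genes had an r over 0.9 with Cacna1c, but 170 with Cacna1h and 107 with Cacna1a.

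Of the 8 auxiliary subunits, all tested, 3 were higher with the fraction alone and 2 with the block, where 23.2% and 15.4% of all genes were, with none lower and a median log2 difference of 0.19. The calls in both fits were Cacna2d1, which aids channel trafficking to terminals and binds gabapentin, at 160 ± 11.8 CPM in TRAP and 56.6 ± 16.1 CPM in INPUT (log2 difference 1.54, adjusted p 0.00026 and 0.00029), and Cacnb1, a cytoplasmic beta subunit, at 40.7 ± 9.20 and 24.8 ± 2.47 CPM (0.69, adjusted p 0.0083 and 0.040). Cacnb4, the beta subunit gene with the most counts in TRAP at 170 ± 26.3 CPM, stood at 157 ± 28.2 CPM in INPUT (0.11, adjusted p 0.60 and 0.74), and Cacna2d3 at 42.8 ± 11.6 and 46.1 ± 12.7 CPM (-0.10, adjusted p 0.77 and 0.82). Of 14 regulators that bind the channels, 11 were tested, at a median of 0.02. With the fraction alone 1 was higher, beside 23.2% of all genes, and 1 lower, beside 3530 of 14249 genes. With the block, where 2393 of 14249 genes were lower, the only regulator called was Rem2. This small GTPase, which inhibits the channels, was at 7.78 ± 1.72 CPM in TRAP and 14.3 ± 2.15 CPM in INPUT (-0.89, adjusted p 0.0046 and 0.030).

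The partners of calcium channels at the release site were higher in TRAP for 10 of 16 genes with the fraction alone and 9 with the block, where 23.2% and 15.4% of all genes were higher. They were lower for 1 and 0, where 3530 and 2393 of all 14249 genes were lower, and their median was 1.09. Snap25 (1.93) and Stx1a (1.54), which make up the membrane side of the fusion complex, Erc1 (1.58), an active zone scaffold, and Unc13b (1.58), a vesicle priming factor, had the largest differences among those called in both fits. Rims3 (-0.07) and Rims2 (-0.10), of the family that tethers channels to the release site, were called in neither. In that family Rims1 was higher in both fits (1.17, limma, adjusted p 0.00061 and 0.0015), and Rims4 (0.28) was called in neither. Rims1 and Rims4 were named after their values were seen. The list shares Snap25 and Syt1 with the pan-neuronal markers, all 5 of which were higher with the fraction alone and 4 with the block, and the part of neuronal RNA as a whole in these counts was not tested. The 1 gene lower with the fraction alone was Pclo (-0.62), a scaffold of the active zone. It and the other genes behind such counts that were called only with the fraction alone (Cacna2d2 at 0.48, Dpysl2 at 0.59, Kcnn1 at 0.81 and Ano2 at -0.82) were named after their values were seen, to account for the counts.

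Of 9 calcium-activated channels, 7 were tested, at a median of 0.26. With the fraction alone 2 were higher and 2 lower, beside 23.2% of all genes higher and 3530 of 14249 lower. With the block 1 was higher and 1 lower, beside 15.4% of all genes higher and 2393 of 14249 lower. Kcnma1, the pore of the large-conductance potassium channel that calcium channels open during a spike, was at 118 ± 3.06 CPM in TRAP and 42.9 ± 11.2 CPM in INPUT (1.50, adjusted p 0.00022 and 0.00029). Trpm4, a calcium-activated cation channel, was lower (-3.16, adjusted p 0.0027 and 0.00093), at 0.308 to 4.28 CPM over the TRAP libraries and 7.25 to 11.2 CPM in INPUT. Kcnn2, which makes a small-conductance potassium channel, stood at 4.29 ± 1.53 and 3.49 ± 0.962 CPM (0.26, adjusted p 0.51 and 0.67). Of 17 genes of calcium stores and extrusion, 15 were tested, and 9 were higher with the fraction alone and 6 with the block, beside 23.2% and 15.4% of all genes, with none lower and a median of 0.75. The largest differences among the calls in both fits were those of Slc24a2, a potassium-dependent sodium-calcium exchanger (1.90), Ryr2, a calcium release channel of the endoplasmic reticulum (1.43), Slc8a2, a sodium-calcium exchanger (1.03), and Atp2b4, a plasma membrane calcium pump (1.02), while Slc8a1 (0.22) and Itpr1 (0.39) were called in neither.

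**Figure D5:**
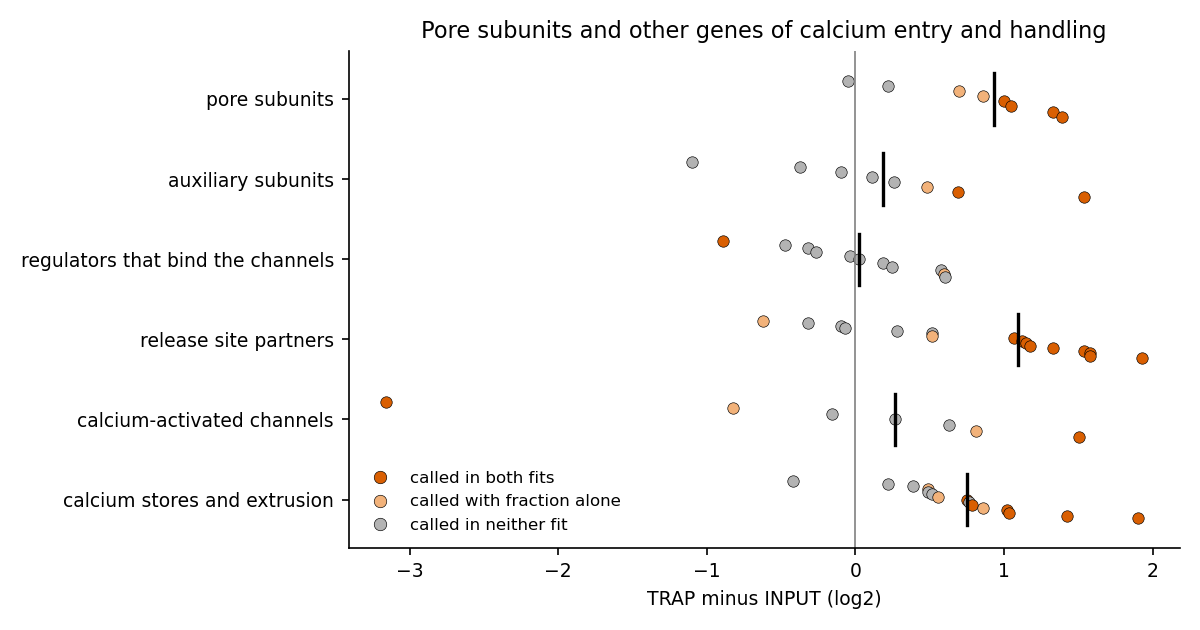
TRAP minus INPUT log2 difference of the 8 pore genes and of the tested genes of 5 lists, 1 dot per gene, coloured by whether the gene was called (adjusted p under 0.05) in both fits, with the fraction alone or in neither, with a black line at the median of each row. The medians are 0.93 for the pore subunits, 0.19 for auxiliary subunits, 0.02 for regulators, 1.09 for release site partners, 0.26 for calcium-activated channels and 0.75 for stores and extrusion.

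The marker lists of other cells moved as follows between the fractions. Over all 14249 genes tested, 3530 were called lower and 3300 higher with the fraction alone, and 2393 and 2199 with the block. Of the GABA neuron markers 3 of 5 were lower in both fits, Sst, Pvalb and Slc32a1, while Gad1 and Gad2 were called in neither. All 5 medium spiny neuron markers, 4 of 5 astrocyte markers and 4 of 5 oligodendrocyte markers were lower in both fits, as were 2 of 5 smooth muscle and pericyte markers, and 5 of 5 microglial markers with the fraction alone and 3 with the block. Of the cholinergic markers 2 of 5 were lower in both fits, Lhx8 and Slc18a3. Among oligodendrocyte precursor markers Cspg4 was higher (1.98) and Gpr17 lower (-1.01), and of 4 endothelial markers with values Flt1 was higher (2.37) in both fits and Slco1a4 (1.397) with the block alone (limma, adjusted p 0.043, against 0.051 with the fraction alone). With the fraction alone 1 cholinergic marker, Chat (0.70), and 1 oligodendrocyte marker, Mag (0.61), were also higher. The part of other cells' RNA in the members' levels was not tested.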

How the data were processed

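RNA of the TRAP and INPUT fractions of 4 VP pools was sequenced. Per the labels and the study's methods, the authors aligned reads with STAR 2.5.1a to GRCm38 with Ensembl annotation, took gene counts of unique reads from featureCounts, scaled libraries by TMM in edgeR and fitted limma. The values the authors deposited are log2 CPM per gene and library, and 3 libraries (both of VP2.11 and the INPUT of VP1.6) carry only 3 significant digits. The table also holds the authors' fold changes and p-values, which were not used. Of 14398 entries, 45 repeats (of 42 genes, with the same values) were left out.

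The fractions were compared by limma 3.58.1 (eBayes with a trend, R 4.3.3) from the log2 values as deposited, over 14249 genes above 1 CPM in at least 3 libraries, at a Benjamini-Hochberg adjusted p under 0.05. A fold change is on the log2 scale as deposited, with no further pseudocount. The fit has the fraction alone, as the study names no pairing. The labels give both libraries of a pool the same pool and the methods 1 homogenate, so the pool pairs them, and the fit with the pool as a replicate block is given beside it. Same-pool libraries deviated from their fraction means in opposite directions (r -0.75 to -0.49 across genes). An exact permutation of the fraction labels gave p = 0.029 for the 6 members whose fractions did not overlap. That is the smallest p that 4 against 4 allow, and the test treats the libraries of a pool as separate. Nearly all genes share a value between the fractions' levels, so this p follows once all 4 pools point the same way. Such was the case, with TRAP higher, for 23.3% of all genes tested, so the p adds nothing to the agreement of the pools. Both fits were tested on simulated data. Where the simulated libraries of a pool deviated in opposite directions, the fit with the fraction alone called more unchanged genes than the fit with the block. The simulation did not impose the value between the fractions' levels that nearly all genes here share over the pools. It therefore does not show how either fit behaves on these values.

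Whole-read steps were sought in differences within pools. In VP2.2 84.6% of 4239 low genes and in VP2.6 96.2% of 4490 fell on whole reads (tolerance 5e-06 on the log2 scale). Whole reads were found only in those differences, so no count test was run. Positions, exon lengths and overlaps came from GENCODE M21 (GRCm38) by gene identifier, and promoters from RefSeq. Protein sequences planned at the outset were not used here.

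The members, gene lists and tests were chosen with earlier results of these data known. All members were named, and from each list up to 4 genes with the largest differences among those called in both fits and up to 2 with the smallest among those called in neither. Alternatives were the block, no filter, 1 CPM added before the log, libraries recentred on their medians, array weights, the exon length trend taken out, pools and libraries left out, a minimum log2 difference of 1 and other gene lengths. The gene most like Cacna1c is not reported here.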

Additional observations from a re-analysis of the deposited data

Results flagged for a closer look

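In 26 groups of 4 values (8 genes and 5 type shares in 2 fractions), the gap between the most extreme library and the nearest other was compared with the whole range. About 1.3 such groups would stand out by chance, and 3 did. Cacna1d in INPUT was at 1.63 log2 CPM in VP2.2, with the other INPUT libraries between 2.51 and 2.58. Cacna1h in TRAP was at 1.34 log2 CPM in VP2.11, with the others between 2.78 and 2.81. The L-type share in INPUT was 12.60% in VP2.11, with the others between 13.61% and 13.72%.

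INPUT VP2.2 was the lowest INPUT library for 6 of the 8 members, and for 35.8% of all genes tested. TRAP VP2.2 was the highest TRAP library for 4 of them, where it was highest for 25.9% of all genes. The libraries of a pool do not vary on their own, so these counts are tied to each other.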

How the results depend on the processing

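With the pool as a replicate block, 4592 genes were called in place of 6830, and 4 members in place of 6, with Cacna1b and Cacna1d losing their calls. Taking out the trend on exon length left 2 members called, and 0 with the block, where 3775 genes were called in all. A minimum log2 difference of 1 left 3528 genes. Leaving out a pool or a single library, over both fits, gave 3 to 7 members and 3232 to 7167 genes called, with the block 3232 without VP1.6, 4156 without VP2.2, 3250 without VP2.6 and 4102 without VP2.11. No filter, 1 CPM added, recentring and array weights left 6 members called, where 6849, 6956, 6719 and 8645 genes were called in all. Array weights with the block left 5 members called, where 6013 genes were called in all, against 4592 with the block and no weights.

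The sign of Cacna1a, called in no fit, turned without VP1.6 (0.23 in both fits), without VP2.6 (0.0047), without TRAP VP1.6 (0.10) and without INPUT VP1.6 (0.086). The sign of Cacna1h turned with the length trend taken out (-0.12 in both fits). The causes of these turns were not tested.

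Type shares follow the length used by construction. Per kb of coding sequence, per kb of the longest transcript and with no length, in that order, TRAP shares were 17.0%, 16.2% and 16.5% for L, 21.3%, 25.9% and 21.8% for N, 42.7%, 33.2% and 42.7% for R and 15.8%, 19.9% and 15.7% for T. The P/Q share was 3.14% by coding sequence and 3.27% with no length. INPUT shares were 17.3%, 15.7% and 16.8% for L, 26.0%, 30.0% and 26.5% for N and 33.8%, 25.0% and 33.7% for R, and T was 16.4% by coding sequence and 16.3% with no length.

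Each fraction has 4 libraries, and the depth of 2 pools is unknown, so no limit of detection can be given. The depth of INPUT was 3.02 and 1.99 times that of TRAP in VP2.2 and VP2.6.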
